A study of Mus musculus with 19 samples.

Results

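Male C57BL/6J mice acutely exposed to odors were compared with naive control mice in every cell class of the medial amygdala that one count table holds. The comparison takes the 4 odor libraries and the 6 naive libraries of that table, which are 10 of the 19 libraries of the series and hold 11501 of the 20679 cells of the table. Naive mice and the mice of odor libraries 3 and 4 were 8 weeks old, and those of odor libraries 1 and 2 were 9 weeks old. All mice were kept on a reversed light cycle. All 10 libraries were made by Drop-seq, in which single cells are caught in droplets with barcoded beads and each captured transcript carries a unique molecular identifier (UMI), after Act-Seq, a dissociation designed to limit transcription while the tissue is taken apart. The labels name neither the odors nor the time of exposure, and they say that these odor cells served cell typing and not the study's own comparisons of immediate early genes. Odor exposure and any handling that went with it cannot be told apart here. Whether each library came from its own animals is not in the labels, and a p-value here therefore reflects only how much libraries varied, which may be technical.

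The medial amygdala receives input from the main and accessory olfactory systems and takes part in social, defensive and reproductive behavior. Active neurons turn on immediate early genes such as Fos, Egr1 and Arc within minutes. Arousal and stress also raise circulating glucocorticoids, which bind the glucocorticoid receptor in neurons, glia and vascular cells and raise a set of target genes that includes Fkbp5, Tsc22d3, Sgk1 and Per1.

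Counts were summed per library for the 7 classes written in the cell names (AS, EN, MG, MU, OL, OPC and N), which were checked against markers of astrocytes, endothelial cells, microglia, mural cells, oligodendrocytes, oligodendrocyte precursors and neurons. Levels are given as CPM, the usual scale on which the UMIs of each library and class are brought to the same total. In AS, EN, MG, MU and OL the class's own markers led: in OL they stood at a median of 135788 CPM after odor and those of any other class at 2010 CPM or less. The class labelled N went against its label, with astrocyte markers at a median of 15964 CPM in naive and 17141 CPM in odor libraries, above its neuron markers at 7689 and 6627 CPM. It is called class N below. The cells that the authors placed in their separate neuron table, 23.6% of class N cells after odor and 28.5% in naive libraries, are given beside it. OPC held oligodendrocyte markers at 15256 CPM in naive and 18839 CPM in odor libraries, above its own markers at 10573 and 10132 CPM. Naive libraries held 43 to 2149 cells and 116492 to 3550199 UMIs, and odor libraries 425 to 1801 cells and 533034 to 2886722 UMIs. A library needed 10 cells of a class to enter it, and naive 6 entered none. In all, 4 cell barcodes were shared between pairs of these libraries. Naive 2 stood apart: it had the highest naive level in 65.8% of the genes raised in AS and 65.7% of those raised in OL, against 20% and 16.1% of all genes tested there.

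Astrocytes and oligodendrocytes held most of the calls. The test was edgeR's quasi-likelihood F-test per class over naive, odor, seizure and immobilization libraries, with Benjamini-Hochberg adjusted p-values in each class and a threshold of 0.05. In AS, 38 genes rose (0.359%) and 15 fell (0.142%), together 0.501% of 10575 genes tested. In OL, 35 rose (0.469%) and 3 fell (0.0402%), together 0.509% of 7467. In MG, 4 rose and none fell (0.0574% of 6966), and in class N, 6 rose (0.0585%) and 3 fell (0.0293%), together 0.0878% of 10250. OPC had 1 call (0.02% of 4997). By edgeR, EN and MU had 0 calls (0%) among 3965 and 1020 genes; unadjusted p was under 0.05 for 252 and 86 of them, and DESeq2 called 3 and 1. Each class had 5 naive and 4 odor libraries, except MU with 4 and 3. Since a low count can miss a change, fewer calls in the smaller classes do not show a smaller response.

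The counts moved with the libraries used. With only the 8-week odor libraries, AS had 13 calls, OL 13, MG 4 and class N 2, of which 13, 11, 4 and 2 were among the calls above. Without naive 2, AS had 85 calls, OL 66 and class N 23. Without odor 3, AS had 23, OL 14 and class N 1. With age as a covariate AS had 35 calls.

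**Figure D1:**
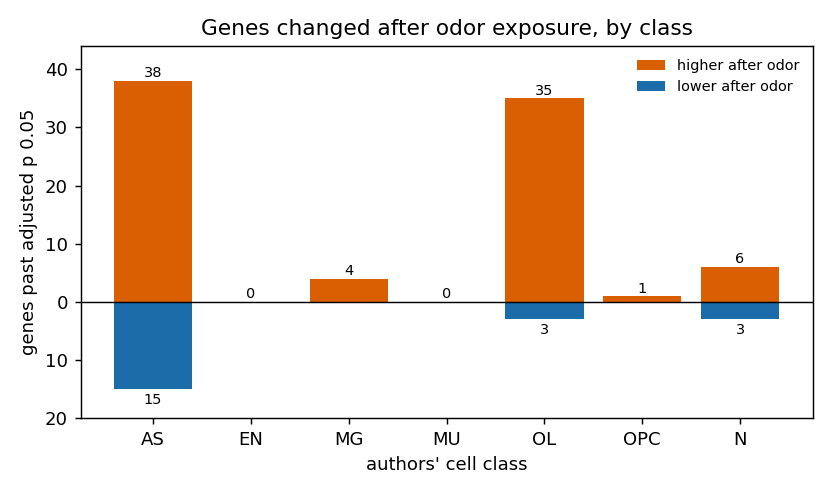
Number of genes past adjusted p 0.05 (edgeR) after odor exposure in each of the authors' 7 cell classes; bars above 0 count genes higher after odor and bars below 0 genes that were lower. AS, with 38 and 15, and OL, with 35 and 3, hold most calls, and EN and MU have none.

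Known glucocorticoid targets were frequent among the genes that rose. Of 26 genes of a list of glucocorticoid-responsive genes that were tested in some class, 18 rose in at least 1 class and none fell, while 89 of all 12500 genes tested in any class were called (0.712%), 68 higher (0.544%) and 21 lower (0.168%). In OL, 13 of 21 tested members rose: Cdkn1a, Nfkbia, Plin4, Arrdc2, Sgk1, Pdk4, Klf15, Mt1, Errfi1, Ddit4, Zbtb16, Plekhf1 and Fkbp5. In AS, 9 of 24 rose: Tsc22d3, Cdkn1a, Fkbp5, Nfkbia, Mfsd2a, Sult1a1, Gadd45g, Glul and Arrdc2. The share of all genes that rose was 0.469% in OL and 0.359% in AS. In MG, 4 of 17 rose (Ddit4, Tsc22d3, Fkbp5 and Sult1a1), and in class N, 3 of 23 (Tsc22d3, Cdkn1a and Gadd45g). No member passed in EN (16 tested), MU (8) or OPC (13). The median log2 fold change of the list was 1.10 in OL, 0.73 in MG, 0.58 in AS, 0.57 in class N, 0.88 in MU, 0.45 in EN and 0.33 in OPC, while the median of all genes tested lay between -0.04 and 0.04 in every class. A list of heat shock genes had medians of 0.45 in MU, 0.43 in EN, 0.38 in OPC, 0.33 in OL and 0.30 in MG. Its medians were 0.07 in class N and -0.03 in AS. A shift of the size seen in EN and OPC was thus not particular to the glucocorticoid list. In MG, smaller lists had medians near that of the glucocorticoid list, 0.77 over 3 neuropeptides and 0.71 over 5 myelin genes tested. Thyroid hormone genes stood there at 0.61 over 6 tested, and all remaining lists stood lower. The glucocorticoid list was written with earlier results of these data known.

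**Figure D2:**
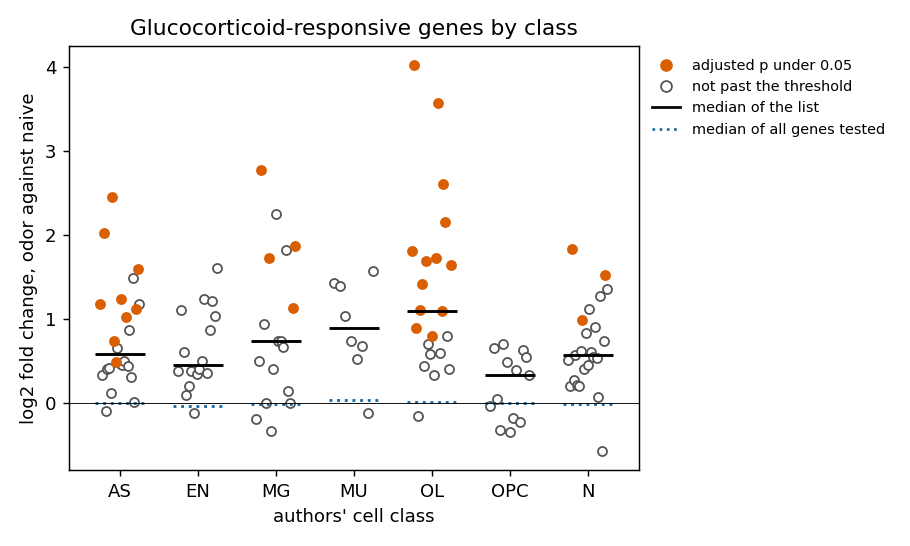
Log2 fold change, odor against naive, of each tested member of the glucocorticoid-responsive list in each class; filled points passed adjusted p 0.05 (edgeR), and lines mark the list's median and the median of all genes tested. The list's median is 1.10 in OL and 0.33 in OPC.

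Of the 89 called genes, 76 were called in 1 class, 10 in 2 and 3 in 3, and none in 4 or more. Of the 76 called in 1 class, 73 were tested in another, and 39 had an unadjusted p under 0.05 in the same direction in another class (edgeR). No gene was called higher in one class and lower in another. Txnip, called higher in AS (log2 1.24, SE 0.27, edgeR adjusted p 0.0188), had a log2 value of -1.76 in OL (SE 0.51, adjusted p 0.139). Rhob, called higher in AS and class N, was at -0.38 in OL (SE 0.14, adjusted p 0.563). In OL all odor libraries lay below all naive ones for both, where 2.52% of all genes did not overlap. The 3 broadest were Tsc22d3, Fkbp5 and Cdkn1a, all members of the glucocorticoid list. The 10 called in 2 classes were Ddit4, Nfkbia, Sult1a1, Mxd4, Arrdc2, 9330159F19Rik, Arl4d, Gadd45g, Rhob and Rin2, and all 13 rose. Class N counts here as a class of its own, though astrocyte markers stood there at 51.0% of their level in AS after odor. Tsc22d3 and Cdkn1a reach 3 classes, and Rhob, Rin2 and Gadd45g reach 2, only with class N counted. Without naive 2, 6 genes were called in 3 or more classes, and without odor 3 only 1 was. Without cells of mixed markers, which are most cells of class N, 1 gene was.

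Tsc22d3 encodes GILZ, a leucine zipper protein that restrains NF-kappaB and AP-1. In AS it stood at 255, 578, 293, 211 and 237 CPM in naive 1 to 5 and at 846, 1188, 964 and 868 CPM in odor 1 to 4. All odor libraries lay above all naive ones, as for 2.47% of all genes tested in AS, and naive 2 was the nearest. The log2 rise was 1.59 (SE 0.20, edgeR adjusted p 8.00e-06). In MG it stood at 116, 164, 159.7, 78.0 and 42.4 CPM in naive 1 to 5 and at 302, 598, 513 and 477 CPM in odor 1 to 4, again with no overlap, as for 2.08% of all MG genes. The log2 rise in MG was 1.87 (SE 0.24, edgeR adjusted p 1.87e-06). In class N it went from 123 ± 67.6 CPM in naive (SD, n = 5) to 387 ± 61.0 CPM in odor libraries (n = 4), a log2 rise of 1.52 (SE 0.21, edgeR adjusted p 8.34e-05), without overlap, as for 1.99% of genes there. In the cells of the neuron table, with 3 odor libraries, the rise was 1.64 (SE 0.23, edgeR adjusted p 4.05e-05). All 3 calls held without any 1 library. The log2 values were 1.57 (SE 0.53) in MU, 1.03 (SE 0.25) in EN, 0.40 (SE 0.20) in OL and 0.33 (SE 0.58) in OPC, none past the threshold. The response of Tsc22d3 differed among the 6 classes other than MU (joint edgeR F-test, adjusted p 0.000807).

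Fkbp5 encodes a co-chaperone of Hsp90 that lowers the affinity of the glucocorticoid receptor for its hormone. In MG it stood at 74.1, 200.2, 121, 133 and 21.2 CPM in naive 1 to 5 and at 306, 447, 548 and 281 CPM in odor 1 to 4. The groups did not overlap, and the log2 rise was 1.72 (SE 0.27, edgeR adjusted p 0.000118). It rose by a log2 of 2.45 (SE 0.41, edgeR adjusted p 0.000965) in AS, from 5.44 ± 4.31 to 35.9 ± 17.6 CPM, and by 1.41 (SE 0.34, edgeR adjusted p 0.0374) in OL, from 16.0 ± 10.1 to 50.3 ± 15.2 CPM. Naive 5 held no UMI of it in either class. The AS call was lost without odor 3 (adjusted p 0.0726), and the OL call when any of 4 of the 9 libraries was left out (adjusted p up to 0.348) and with age as a covariate (0.0825). In class N the log2 value was 0.62 (adjusted p 0.820). No difference among classes passed the joint test (adjusted p 0.135).

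Cdkn1a encodes p21, an inhibitor of cyclin-dependent kinases that also rises with p53. In OL it stood at 1.80, 2.93, 2.46, 22.7 and 0 CPM in naive 1 to 5 and at 76.1, 154, 118 and 65.9 CPM in odor 1 to 4. Naive 4 was the highest naive library, and all odor libraries lay above it, as for 2.52% of all genes tested in OL. The log2 rise was 4.02 (SE 0.44, edgeR adjusted p 5.89e-08). It rose by 2.02 (SE 0.34, edgeR adjusted p 0.000955) in AS, from 11.3 ± 9.67 to 59.9 ± 19.6 CPM, and by 1.83 (SE 0.33, edgeR adjusted p 0.00806) in class N, from 7.75 ± 6.07 to 41.6 ± 18.8 CPM. The AS and OL calls held without any 1 library, and the class N call was lost without naive 1 or odor 3 (adjusted p up to 0.163). In the neuron-table cells the log2 value was 1.80 (adjusted p 0.0617). In EN, where its mean level was 469 CPM in naive and 611 CPM in odor libraries, the log2 value was 0.38 (adjusted p 0.877), and in MG it was -0.20 (adjusted p 0.989).

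**Figure D3:**
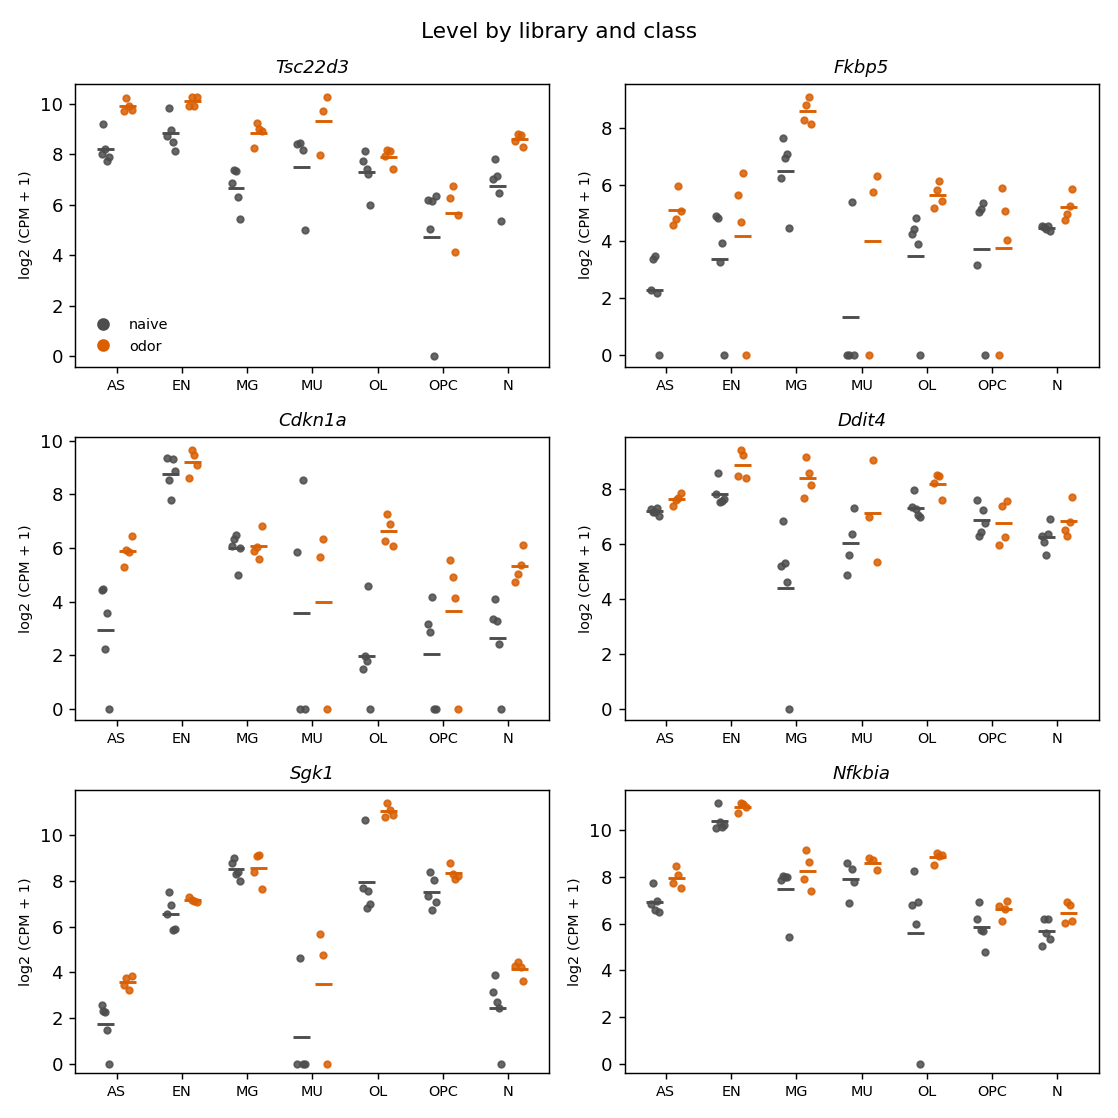
Level, as log2 (CPM + 1), of 6 genes in each library (points) and class, for naive and odor libraries, with bars at group means. Tsc22d3 is higher in all odor libraries in AS, MG and N, and for Sgk1 in OL naive 2, at 1620 CPM, lies nearest the odor libraries.

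Ddit4, an inhibitor of mTORC1 that also responds to hypoxia, rose in microglia and oligodendrocytes. In MG it stood at 35.3, 112, 38.3, 23.4 and 0 CPM in naive 1 to 5 and at 199.9, 576, 382 and 281 CPM in odor 1 to 4. The lowest odor library was above the highest naive one, naive 2. The log2 rise was 2.77 (SE 0.31, edgeR adjusted p 5.55e-08). In OL it rose by 0.89 (SE 0.20, edgeR adjusted p 0.0206), from 163 ± 48.9 to 299.5 ± 77.9 CPM, with overlapping groups. The OL call was lost when any of 5 of the 9 libraries was left out (adjusted p up to 0.168), and with age as a covariate (0.221). Nfkbia, the inhibitor of NF-kappaB, rose by a log2 of 1.73 (SE 0.24, edgeR adjusted p 1.60e-05) in OL, from 121 ± 115 to 462 ± 67.7 CPM, and by 1.02 (SE 0.18, edgeR adjusted p 0.00183) in AS, and both calls held without any 1 library. Its log2 values in the other classes ranged from 0.39 in OPC to 0.90 in class N and did not pass.

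Sult1a1, a sulfotransferase, rose by a log2 of 1.13 (SE 0.22) in MG, from 163 ± 35.7 to 359 ± 87.2 CPM, and by 1.11 (SE 0.22) in AS. Mxd4, a partner of MAX that represses MYC targets, rose by 0.79 (SE 0.17) in AS and 0.85 (SE 0.19) in OL. Arrdc2, an arrestin-domain protein, rose by 1.81 (SE 0.28) in OL and 1.18 (SE 0.29) in AS, and 9330159F19Rik by 1.10 (SE 0.18) and 1.03 (SE 0.14). These calls passed edgeR's test at adjusted p between 2.96e-05 and 0.0443. The Sult1a1 call in AS was lost without odor 3 (adjusted p 0.0962) and that in MG without naive 1 or odor 3 (adjusted p up to 0.133). The Mxd4 call in AS was lost without naive 4 or odor 3 (adjusted p up to 0.101), and that in OL when any of 3 of the 9 libraries was left out (adjusted p up to 0.140). Rhob, a small GTPase, Rin2, an exchange factor for Rab5, and Gadd45g, a growth-arrest protein, were called in AS and class N. In class N they rose by 0.87 (SE 0.18), 0.91 (SE 0.18) and 0.98 (SE 0.21), and in AS by 0.84 (SE 0.17), 0.94 (SE 0.22) and 0.73 (SE 0.16). In the neuron-table cells their adjusted p was 0.0710, 0.0617 and 0.624, and Rhob and Gadd45g missed the threshold in class N with RLE scaling (0.0536 and 0.0579). All 6 of these calls were lost without at least 3 of the 9 libraries in turn. Astrocyte markers in class N stood at 51.0% of their level in AS after odor, and Tsc22d3 at 40% of its level in AS; their part in these calls was not tested.

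Arl4d encodes a small GTPase of the ARF family. In AS it had 1 UMI over the 5 naive libraries, in naive 3, and 37 UMIs over the 4 odor libraries, at 10.8, 21.0, 10.6 and 13.1 CPM. The pooled level was 48.2 times higher, with a 95% exact binomial interval of 8.13 to 1954 that covers counting error only. In OL it stood at 14.4, 61.6, 7.38, 8.51 and 0 CPM in naive 1 to 5 and at 41.3, 78.5, 90.3 and 18.0 CPM in odor 1 to 4. The OL groups overlapped, with naive 2 above odor 1 and odor 4. The OL rise of 1.599 (SE 0.39, edgeR adjusted p 0.0404) was lost when any of 6 of the 9 libraries was left out (adjusted p up to 0.387).

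The stretches before the starts of the 13 genes called in 2 or 3 classes were read from RefSeq (GRCm38.p6), since these genes rose in more than 1 class. The windows reach 250 bases upstream on the gene's strand, and all 13 genes matched. They were searched on both strands for the glucocorticoid response element palindrome (GNACA, any 3 bases, then TGTNC), the AP-1 site TGANTCA, the cAMP response element TGACGTCA, the E-box CACGTG and the TATA box TATAAA. No window of the 13 genes held the palindrome, which 0.387% of 32851 windows hold, or the AP-1 site (6.75% of windows). The E-box was found upstream of Fkbp5, Gadd45g and Mxd4 (6.02% of windows), the TATA box upstream of 9330159F19Rik and Gadd45g (12.4%) and the cAMP response element upstream of Arl4d (1.55%). Each is a match of letters and no measured site. With 0.387% of windows holding the palindrome, a match among 13 genes was unlikely from the start. Sites beyond 250 bases were not searched, so the absence of the palindrome decides nothing. The windows of 3 genes that held a match are shown with the matched letters in capitals. In Fkbp5 (chr17:28486150-28486399, minus strand) the capitals are the E-box, whose first base is at -169 from the start. In Arl4d (chr11:101665291-101665540, plus strand) they are the cAMP response element, at -26. In Gadd45g (chr13:51846425-51846674, plus strand) they are the E-box and the TATA box, at -142 and -27.
Fkbp5: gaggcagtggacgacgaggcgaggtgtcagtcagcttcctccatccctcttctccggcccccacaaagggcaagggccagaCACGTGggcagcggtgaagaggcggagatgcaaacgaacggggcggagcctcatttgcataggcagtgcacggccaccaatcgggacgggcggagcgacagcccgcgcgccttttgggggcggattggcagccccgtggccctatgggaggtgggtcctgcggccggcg
Arl4d: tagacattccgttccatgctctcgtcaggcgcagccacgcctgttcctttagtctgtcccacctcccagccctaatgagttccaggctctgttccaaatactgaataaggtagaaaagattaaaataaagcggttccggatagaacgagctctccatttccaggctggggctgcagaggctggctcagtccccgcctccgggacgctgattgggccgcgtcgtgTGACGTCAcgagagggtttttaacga
Gadd45g: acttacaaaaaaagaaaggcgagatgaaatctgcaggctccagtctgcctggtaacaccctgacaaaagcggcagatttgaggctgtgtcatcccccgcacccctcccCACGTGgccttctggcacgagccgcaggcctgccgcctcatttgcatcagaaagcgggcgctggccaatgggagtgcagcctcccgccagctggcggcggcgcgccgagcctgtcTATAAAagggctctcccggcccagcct

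**Figure D4:**
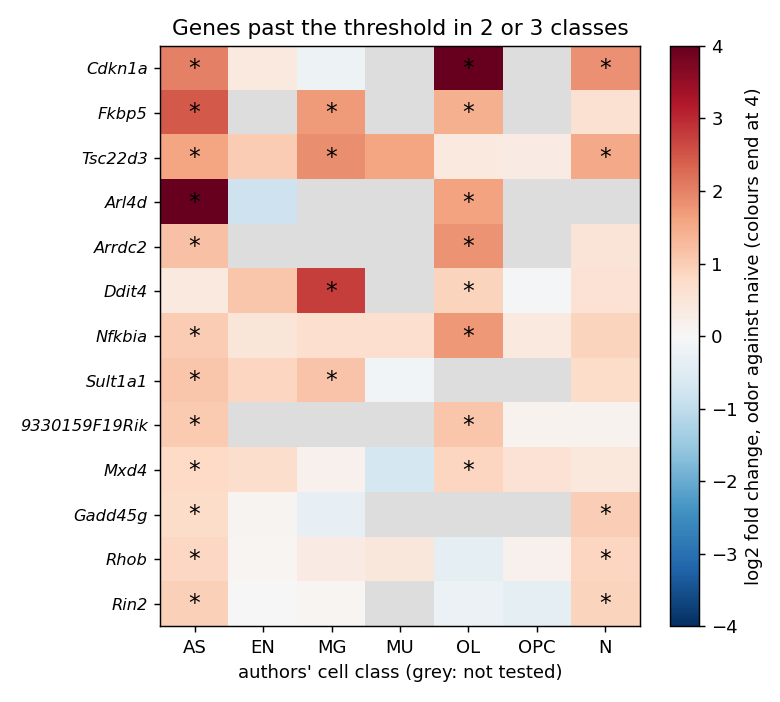
Log2 fold change, odor against naive, of the 13 genes past adjusted p 0.05 (edgeR) in 2 or 3 classes, in each class where they were tested. Calls fall in AS, MG, OL and N, and every called value is above 0.

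The response averaged over classes was examined as the mean log2 CPM of a library over AS, EN, MG, OL, OPC and class N. It covered 2717 genes tested in all 6. A mean can pass though classes differ, so a pass does not show an equal response in each class. By limma, 2 genes passed (0.0736%), both higher after odor. The mean of Ddit4 was 7.03, 7.24, 6.65, 6.85 and 6.52 in naive 1 to 5 and 7.43, 8.09, 7.90 and 7.88 in odor 1 to 4, a difference of 0.97 (SE 0.16, limma adjusted p 0.0330). That of Klf9, a Krüppel-like factor and known target of glucocorticoid and thyroid hormone, was 7.05, 7.31, 7.07, 6.98 and 6.73 in naive 1 to 5 and 7.80, 7.77, 7.64 and 7.82 in odor 1 to 4, a difference of 0.73 (SE 0.13, limma adjusted p 0.0359). Neither gene's groups overlapped. The response of Ddit4 differed among the 6 classes (joint edgeR F-test, adjusted p 9.12e-06), with log2 values from -0.04 in OPC to 2.77 in MG. Klf9 passed in no single class, with log2 values from 0.38 in EN to 2.25 in MG. The MG value of Klf9 rests on low levels, a mean of 6.90 CPM in naive and 34.8 CPM in odor libraries. The differences of Sgk1 (1.18), Mxd4 (0.61) and Tsc22d3 (1.26) did not pass (limma adjusted p 0.126, 0.138 and 0.204). Neither call of Ddit4 and Klf9 was kept with the 8-week odor libraries alone (adjusted p 0.176 and 0.613). The Ddit4 call was lost when any of 7 of the 9 libraries was left out (adjusted p up to 0.164), and the Klf9 call when any of 8 of the 9 libraries was left out (adjusted p up to 0.215).

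Which responses differed between classes was tested in 1 edgeR model over 90 sums with a term for each library, as the odor effect of a class minus the mean of the other 5. The other 5 include classes where a gene was too low for a test of its own. In OL, 9 of 7096 genes differed (0.127%), 7 with a higher (0.0986%) and 2 with a lower value (0.0282%). In EN, 3 of 3588 differed (0.0836%), 1 higher (0.0279%) and 2 lower (0.0557%), and in MG 3 of 6201 (0.0484%), 2 higher (0.0323%) and 1 lower (0.0161%). By edgeR, AS, OPC and class N had 0 (0%), with unadjusted p under 0.05 for 322, 317 and 398 genes; no other tool was run. Over all 6 classes, 14 of 8164 genes differed (0.171%), and 6 of the 13 genes called in 2 or 3 classes were among them. Of the 63 genes called in 1 class and tested in at least 3, 4 differed from the other classes in that class, all in OL: Sgk1, Tma16, Polr3e and Nr4a1. Polr3e and Nr4a1 did not pass the test over all 6 classes (joint edgeR F-test, adjusted p 0.169 and 0.113). For the genes called in 1 class other than these 4, a difference from the other classes was not shown.

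Sgk1, the serum- and glucocorticoid-regulated kinase, acts on ion transporters and membrane traffic. In OL it stood at 203, 1619.5, 111, 187 and 125 CPM in naive 1 to 5 and at 1777, 2719.5, 2208 and 1887 CPM in odor 1 to 4. Naive 2 was far above the other naive libraries and close to the lowest odor library. The log2 rise was 2.15 (SE 0.37, edgeR adjusted p 0.000354), and 3.73 without naive 2. DESeq2 gave an adjusted p of 0.107 for it. In MG the log2 value was 0.14 (adjusted p 0.988), from 374 ± 105 to 408 ± 175 CPM. The OL response exceeded the mean of the others by 1.82 (SE 0.31), at adjusted p 0.000328, and this was lost without naive 1 (adjusted p 0.0869). In AS and class N, Sgk1 reached 0.512% and 0.802% of its OL level after odor, where oligodendrocyte markers stood at 0.619% and 1.61% of theirs.

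The other OL genes with a larger response than the mean of the other classes were Cdkn1a (2.94), Nr4a1 (2.37), Tma16 (2.12), Arrdc2 (1.96), Polr3e (1.19) and Nfkbia (1.16), as log2 differences with edgeR adjusted p of 0.00108 to 0.0412. Tma16, a translation machinery factor, stood in OL at 35.9, 35.2, 41.8, 82.2 and 31.3 CPM in naive 1 to 5 and at 137, 154, 319 and 119.8 CPM in odor 1 to 4. The groups did not overlap, and the log2 rise in OL was 2.02 (SE 0.29, edgeR adjusted p 1.79e-05). Polr3e, a subunit of RNA polymerase III, rose in OL from 181 ± 84.7 to 514 ± 128 CPM, by a log2 of 1.48 (SE 0.20, edgeR adjusted p 5.02e-06). Rhob and Rasal2, a GTPase-activating protein, differed in the other direction, by -0.82 (SE 0.18) and -1.41 (SE 0.34). With only the 8-week odor libraries, 4 of the 9 OL differences held, those of Cdkn1a, Nfkbia, Sgk1 and Tma16. All 9 were lost without at least 1 library. Cdkn1a and Nfkbia were lost without naive 1 or naive 3 (edgeR adjusted p up to 0.121 and up to 0.0652). Tma16 was lost when any of 3 of the 9 libraries was left out (adjusted p up to 0.170). Polr3e was lost for any of 6 of the 9 (adjusted p up to 0.400) and Nr4a1 for any of 7 (adjusted p up to 0.282). With RLE scaling the Nr4a1 difference had an edgeR adjusted p of 0.0550. In MG, Ddit4 exceeded the others by 2.21 (SE 0.32), at adjusted p 1.22e-06, which held without any 1 library and with the 8-week odor libraries. The MG response of Cdkn1a was lower by -2.13 (SE 0.44) and that of Vcam1 higher by 3.40 (SE 0.71), and neither held with the 8-week odor libraries. The own test of Vcam1 in MG did not pass (log2 1.66, SE 0.62, edgeR adjusted p 0.794), and its groups overlapped.

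**Figure D5:**
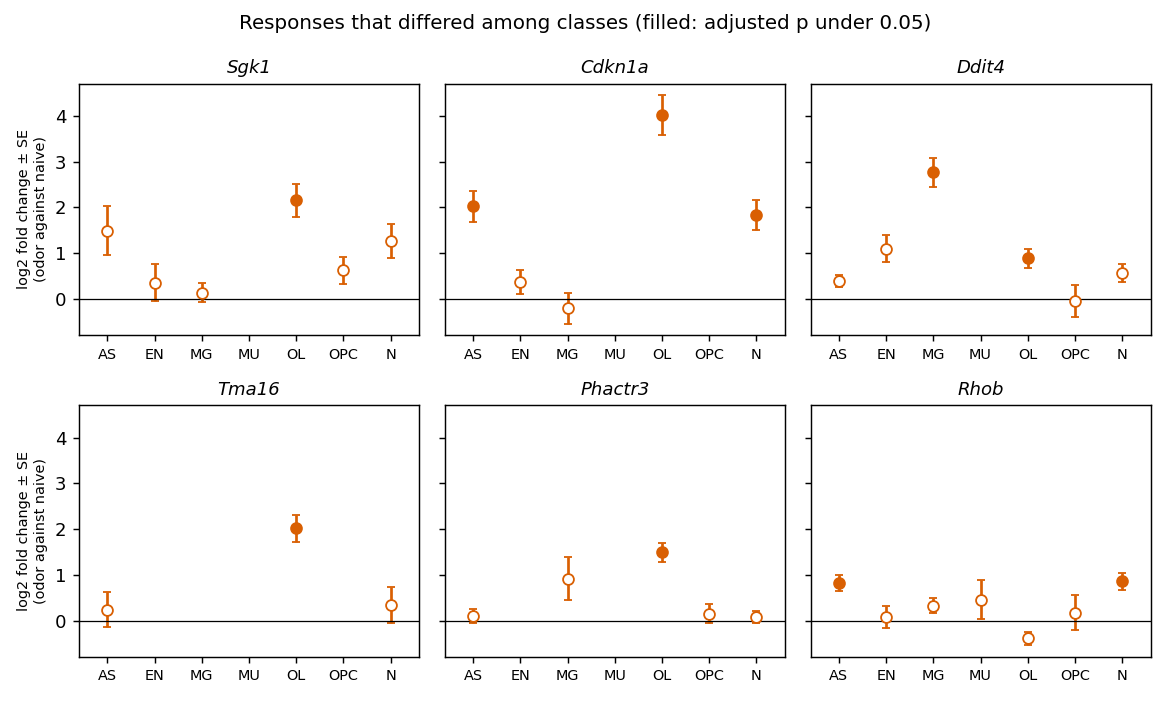
Log2 fold change, odor against naive, with its SE, in each class where the gene was tested, for 6 genes whose response differed among classes; filled points passed adjusted p 0.05 (edgeR). Sgk1, Tma16 and Phactr3 pass in OL alone, Ddit4 is at 2.77 in MG, and Rhob is above 0 in AS and N and at -0.38 in OL.

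Oligodendrocytes called 30 genes that no other class called, 27 higher and 3 lower. Plin4, a coat protein of lipid droplets, stood in OL at 18.0, 41.1, 9.84, 2.84 and 0 CPM in naive 1 to 5 and at 69.6, 75.1, 147 and 149.7 CPM in odor 1 to 4. The groups did not overlap, and the log2 rise was 2.61 (SE 0.39, edgeR adjusted p 3.84e-05). Plin4 was too low for a test in any other class. Pdk4, a kinase that holds back pyruvate oxidation, Klf15, a Krüppel-like factor of amino acid and lipid metabolism, and Phactr3, a regulator of protein phosphatase 1 and actin, are named after their values were seen. Pdk4 had 3 UMIs over the naive and 43 over the odor libraries, a pooled ratio of 14.2 (95% exact binomial interval 4.55 to 71.6), with odor 4 at 0. Klf15 rose by a log2 of 1.69 (SE 0.33, edgeR adjusted p 0.00335), from 20.7 ± 12.4 to 77.3 ± 21.1 CPM. Its log2 value was 0.65 in AS (edgeR adjusted p 0.0548), 0.83 in class N (0.298) and -0.33 in OPC (0.987). No difference of Klf15 among classes passed the joint edgeR F-test (adjusted p 0.488). Phactr3 rose by 1.49 (SE 0.20, edgeR adjusted p 5.02e-06) in OL, and its log2 values in AS, MG, OPC and class N, from 0.08 to 0.92, did not pass. Cacybp, which binds S100 proteins, rose by 0.78 (SE 0.17, edgeR adjusted p 0.0183) and was lost when any of 3 of the 9 libraries was left out (adjusted p up to 0.110). Mat2a, which makes S-adenosylmethionine, rose by 0.65 (SE 0.16, edgeR adjusted p 0.0398) and was lost when any of 8 of the 9 libraries was left out (adjusted p up to 0.207). Phf6, a chromatin protein, rose by 2.37 (SE 0.58, edgeR adjusted p 0.0404) from at most 5.67 CPM in naive libraries, and with age as a covariate its adjusted p was 0.382. The Phf6 call was lost in all 5 of the fits without a library in which it was still tested (adjusted p up to 0.0965). None of 15 myelin genes tested in any class was called. The median OL cell held 2539 UMIs in naive and 1882.5 UMIs in odor libraries.

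Astrocytes called 41 genes alone, 26 higher and 15 lower, and none of the 33 tested in 3 or more classes passed the test of a difference from the other classes. Hr, a nuclear corepressor and textbook target of thyroid hormone, stood in AS at 8.87, 10.7, 4.70, 7.21 and 0 CPM in naive 1 to 5 and at 42.2, 37.8, 64.7 and 39.4 CPM in odor 1 to 4. All odor libraries were above all naive ones, and the log2 rise was 2.69 (SE 0.33, edgeR adjusted p 8.00e-06). Dio2, the deiodinase with which astrocytes make active thyroid hormone, rose by 0.76 (SE 0.18, edgeR adjusted p 0.0406), from 77.5 ± 21.4 to 138 ± 14.8 CPM. Both belong to a list of thyroid hormone genes, of which 12 were tested in AS, where 0.501% of all genes were called, and no other of the 13 tested in any class was called. The Hr call held without any 1 library, while that of Dio2 was lost when any of 7 of the 9 libraries was left out (adjusted p up to 0.246) and with age as a covariate (0.144). Mfsd2a, the transporter of docosahexaenoic acid, rose in AS by 1.23 (SE 0.22, edgeR adjusted p 0.00228), from 107 ± 42.3 to 270.1 ± 44.7 CPM. Mycl, a MYC family factor, rose by 1.98 (SE 0.35, edgeR adjusted p 0.00183), and the transcript A730020M07Rik by 2.12 (SE 0.42, edgeR adjusted p 0.00755). The A730020M07Rik call was lost without odor 1 or odor 3 (adjusted p up to 0.0660), and the transcript was tested in AS alone.

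The genes that fell in astrocytes included 4 of the 19 genes of a Notch and astrocyte stem-cell list tested there, and none rose; 0.142% of all genes tested in AS fell. Fabp7, a fatty acid binding protein of radial glia and immature astrocytes, stood at 1411, 591, 698, 1806 and 2284 CPM in naive 1 to 5 and at 474, 487, 424 and 447 CPM in odor 1 to 4. The naive libraries were spread widely, and all 4 odor libraries lay below them. The log2 change was -1.54 (SE 0.29, edgeR adjusted p 0.00359); DESeq2 gave an adjusted p of 0.141. Jag1, a Notch ligand, changed by -1.45 (SE 0.32), Hes5, a Notch target, by -0.68 (SE 0.15) and Sox2, a factor of stem cells and astrocytes, by -0.55 (SE 0.13), at edgeR adjusted p of 0.0205, 0.0205 and 0.0362. The Jag1 call was lost when any of 5 of the 9 libraries was left out (adjusted p up to 0.159), the Hes5 call when any of 5 of the 9 libraries was left out (adjusted p up to 0.196) and the Sox2 call when any of 6 of the 9 libraries was left out (adjusted p up to 0.232). The list's median log2 value in AS was -0.28. Precursor markers in AS summed to 785 to 860 CPM after odor and to 1033 to 1387 CPM in naive libraries. Of these markers, 9 of 10 were in the table and none of them at 0. Cspg5 is 1 of them and was itself called lower in AS, at a log2 of -0.56 (edgeR adjusted p 0.0205). The part of the precursor markers in the result was not tested. Ier5, an immediate early response gene, stood in AS at 34.5, 49.4, 43.2, 41.5 and 67.7 CPM in naive 1 to 5 and at 12.97, 18.2, 14.9 and 13.1 CPM in odor 1 to 4. All odor libraries lay below all naive ones, with a log2 change of -1.54 (SE 0.28, edgeR adjusted p 0.00253).

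Of 22 immediate early factors tested in any class, 3 were called, against 0.712% of all genes: Egr1 rose in class N and Nr4a1 in OL, and Ier5 fell in AS. Egr1 stood in class N at 31.5, 32.6, 29.5, 24.3 and 0 CPM in naive 1 to 5 and at 62.9, 54.3, 63.2 and 34.2 CPM in odor 1 to 4. Odor 4 came nearest to the naive libraries, and the log2 rise was 1.03 (SE 0.22, edgeR adjusted p 0.0404). In the neuron-table cells the value was 0.78 (adjusted p 0.523), RLE scaling gave an adjusted p of 0.0549 in class N, and the call was lost when any of 5 of the 9 libraries was left out (adjusted p up to 0.441). Fos stood in class N at 9.30, 4.07, 7.64, 8.85 and 0 CPM in naive 1 to 5 and at 6.19, 12.5, 19.1 and 57.0 CPM in odor 1 to 4. The groups overlapped, odor 4 was the highest, and the log2 value was 0.95 (edgeR adjusted p 0.801). In the neuron-table cells the log2 value of Fos was 1.65 (SE 0.57, edgeR adjusted p 0.407) and that of Junb 0.90 (SE 0.48, edgeR adjusted p 0.804). Both had all 3 odor libraries above the 5 naive ones, where 4.31% of all genes did not overlap, and neither passed. Arc and Junb had log2 values of 0.95 and 0.57 in class N (edgeR adjusted p 0.632 and 0.876), and Fos, Arc and Junb were called neither in a class nor in the neuron-table cells. Nr4a1, a nuclear receptor induced by activity and by stress hormones, rose in OL by 1.58 (SE 0.39, edgeR adjusted p 0.0395), from 10.4 ± 10.01 to 36.6 ± 5.65 CPM, and was lost when any of 7 of the 9 libraries was left out (adjusted p up to 0.176). Apold1, an endothelial early response gene, had a log2 value of -0.03 in EN (adjusted p 0.998).

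In class N, 3 genes fell. Avp, the vasopressin precursor, stood at 9.30, 1992, 7.64, 13755 and 0 CPM in naive 1 to 5 and at 49.5, 27.9, 6.02 and 11.4 CPM in odor 1 to 4. Naive 2 and naive 4 held nearly all of it, and the other naive libraries overlapped the odor ones. The log2 change of Avp was -6.94 (SE 1.30, edgeR adjusted p 0.00998), and the call was lost when any of 4 of the 9 libraries was left out (adjusted p up to 0.163). Sfrs18, a splicing-related gene, changed by -1.06 (SE 0.18, edgeR adjusted p 0.00542) and was lost without odor 3 (adjusted p 0.163). Ftx, a noncoding RNA of the X inactivation region, changed by -3.07 (SE 0.60, edgeR adjusted p 0.0186). It stood at 46.5, 12.2, 17.5, 6.64 and 19.9 CPM in naive 1 to 5 and at 3.09, 2.79, 0 and 22.8 CPM in odor 1 to 4. The groups overlapped, with odor 4 above every naive library but naive 1. Leaving out single libraries was not examined for Ftx. In the neuron-table cells 11 genes were called (0.125% of 8808), with Tsc22d3 higher (0.0114%) and 10 lower (0.114%). Meg3 and Snhg11, noncoding RNAs abundant in neurons, were among the 10, at log2 -2.59 (SE 0.41) and -2.24 (SE 0.39). Neuron markers as a whole summed there to 4599 to 5912 CPM after odor and 5843 to 19975 CPM in naive libraries. These markers include Meg3 and Snhg11 themselves. Mean Meg3 went from 4478 CPM in naive to 658 CPM in odor libraries, and mean Snhg11 from 2579 to 417 CPM. Astrocyte markers summed to 15900.3 to 18112 CPM after odor and 11585 to 17162 CPM in naive libraries. The part of the markers in the result was not tested. DESeq2 called 0 genes in class N, where unadjusted p by edgeR was under 0.05 for 621. With cells of mixed markers left out, which are 91.7% of class N cells after odor and 86.6% in naive libraries, edgeR called 0.

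The single OPC call rested on 1 library. Ccdc163 stood in OPC at 24.0, 19.2, 0, 30.2 and 0 CPM in naive 1 to 5 and at 30.4, 9.64, 1049 and 0 CPM in odor 1 to 4. Only odor 3 was high, and without odor 3 edgeR called 0 genes in OPC. The log2 value was 4.15 (SE 0.84, edgeR adjusted p 0.0392). It is named as the only call of its class.

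In EN, where no gene passed, 3 genes differed from the other classes in the joint fit: Cyr61, Atp1b1 and Cdkn1a. Cyr61, a matricellular protein, had 28 UMIs over the 5 naive libraries, at 21.8, 90.2, 26.3, 100.3 and 98.1 CPM, and none over the 4 odor libraries. The pooled naive level was 6.404-fold above a floor of 3 counts in the odor libraries. This ratio leaves out the counting error of the 28 naive UMIs and the spread of the libraries, and is no strict bound. The own test of Cyr61 in EN did not pass (edgeR adjusted p 0.0576). Atp1b1, a subunit of the sodium pump, stood in EN at 14.5, 9.02, 35.0, 14.3 and 19.6 CPM in naive 1 to 5 and at 78.4, 198, 53.1 and 67.9 CPM in odor 1 to 4. The groups did not overlap, as for 1.99% of all EN genes, and its own test did not pass either (log2 2.46, SE 0.54, edgeR adjusted p 0.0606). Both were named after their values were seen, and no EN difference held with the 8-week odor libraries alone.

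The lists that gave no call in any class, by edgeR, were the unfolded protein response (23 genes tested), the circadian clock (19), sterol synthesis (21), cytoplasmic ribosomal proteins (82), nuclear-encoded oxidative phosphorylation (79), the interferon response (17), homeostatic microglia (17), nuclear long noncoding RNAs (11), blood (12) and choroid plexus and ependyma (10). In the neuron-table cells, 3 of the 11 nuclear long noncoding RNAs fell (Meg3, Snhg11 and Miat), where 0.114% of all genes fell, and the list's median log2 value was -0.74. In class N none of the 11 had a value above 0, and the median was -0.61. A single member rose among 23 heat shock genes (Cacybp), 18 inflammatory genes (Nfkbia), 19 genes of the blood-brain barrier (Mfsd2a) and 15 cell death genes (Cdkn1a), and 2 among 19 activity effectors (Arl4d and Gadd45g), where 0.544% of all genes rose in some class. Among 16 neuropeptides, Avp fell, as did 0.168% of all genes. Of the 89 called genes, 59 were in no list.

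The same naive libraries served the 4 immobilization and 2 seizure libraries of the table, so fold changes against naive share controls, and the odor libraries were also compared directly with both. Against immobilization, 29 genes passed in EN (0.731%), 13 in MG (0.187%) and 2 in AS (0.0189%). Apold1 in EN stood at a log2 of -3.42 (SE 0.32) against immobilization and -3.98 (SE 0.34) against seizure (edgeR adjusted p 8.99e-09 and 1.22e-09). In MG, Tsc22d3, Ddit4 and Nfkbia were lower after odor than after immobilization, by -1.22 (SE 0.21), -1.14 (SE 0.24) and -1.12 (SE 0.22), at edgeR adjusted p of 0.00312, 0.0240 and 0.0198. Against naive libraries the log2 values of Ddit4 in MG were 2.77 after odor, 3.91 after immobilization and 3.19 after seizure, and those of Sgk1 in OL 2.15, 2.35 and 1.95. The direct log2 difference of Sgk1 in OL was -0.20 (SE 0.36) against immobilization and 0.20 (SE 0.44) against seizure, and neither passed. Fos in class N was lower after odor than after seizure by -3.45 (SE 0.32) (edgeR adjusted p 1.61e-09). Against seizure, 22 genes passed in AS (0.208%), 20 in EN (0.504%), 12 in MG (0.172%), 10 in class N (0.0976%), 6 in MU (0.588%), 5 in OPC (0.1%) and 4 in OL (0.0536%).

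The shares of the classes did not pass the threshold. EN made up 3.43% ± 0.59 of cells in odor libraries (SD, n = 4) and 6.12% ± 2.75 in naive libraries (n = 6). The exact two-sided permutation p was 0.0190, and 0.133 after adjustment over 7 classes. Without libraries under 300 cells, the naive share of EN was 4.35% ± 0.27 (n = 4). The EN difference was then -0.92 percentage points, against -2.69 with all libraries (exact permutation p 0.0571, adjusted p 0.3). OL made up 15.4% ± 7.44 of cells in odor libraries, 5.45 percentage points more than in naive libraries (exact permutation p 0.210, adjusted p 0.489). The other 5 classes had adjusted p of 0.49 to 0.83 in the same exact permutation test.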

How the data were processed

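Single-cell RNA of the medial amygdala was measured by Drop-seq. The authors deposited UMI counts per gene and cell, not normalized, in 1 table of 20679 cells and 16233 genes with 35709950 UMIs, and in a table of neurons used here only for which cells it holds. Base calling with bcl2fastq 2.17.1.14 and alignment with STAR 2.5.0a to mm10 are named in the submitters' processing notes; for cell filters and class names, nothing is stated in the sources used. Each cell had at least 430 genes, and doublets were not removed beyond the deposited classes; cells with as many markers of another class as of their own were left out as an alternative.

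Counts were summed per library and class (at least 10 cells) and tested with edgeR 4.0.16 in R 4.3.3 (TMM scaling, filterByExpr, 4 groups, no covariate). SEs were derived from the F statistic. The difference between classes used 1 edgeR model with library terms, and the mean over classes limma 3.58.1 with a prior count of 2. Alternatives were DESeq2 1.42.0, RLE scaling, no filter, age, cell minimums, a replicate block and each library left out. The fit per class, the difference of OL from the other classes and the mean over classes were run on simulated data. The other tests were not. Intervals cover counting error only.

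The members and gene lists were chosen with earlier results of these data known. Genes were named by a rule: genes called in 3 classes, genes of 1 class that differed from the others, the 4 largest non-overlapping calls per class, up to 4 called members per list, the 8 genes of smallest p in the mean over classes, and a fixed set of early response and glucocorticoid genes. Other named genes were chosen after their values were seen, among them all genes called in 2 classes that the rule did not reach.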

Additional observations from a re-analysis of the deposited data

Results flagged for a closer look

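Single libraries stood far from the rest of their group for 13 of 92 gene, class and group combinations examined. The rule flags about 1 in 20 groups by chance where values are normally distributed. Low counts need not be, as for Arl4d in AS with 1 naive UMI, so more flags than chance gives were not shown. Among naive libraries these were naive 2 for Sgk1 in OL (1620 CPM), Polr3e in OL (332 CPM), Arl4d in OL (61.6 CPM), Gadd45g in AS (199 CPM) and Tsc22d3 in AS (578 CPM). Naive 4 stood apart for Avp in class N (13755 CPM), Cdkn1a in OL (22.7 CPM) and Tma16 in OL (82.2 CPM), naive 3 for Arl4d in AS (0.939 CPM) and naive 5 for Egr1 in class N (0 CPM). Among odor libraries, odor 3 stood apart for Hr in AS (64.7 CPM) and Tma16 in OL (319 CPM), and odor 4 for Sox2 in AS (552 CPM).

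The odor response of a class differed from the mean of the other 5 in the joint edgeR model for 15 class and gene pairs, as log2 differences. In OL these were Cdkn1a (2.94), Nr4a1 (2.37), Tma16 (2.12), Arrdc2 (1.96), Sgk1 (1.82), Polr3e (1.19), Nfkbia (1.16), Rhob (-0.82) and Rasal2 (-1.41). In MG they were Vcam1 (3.40), Ddit4 (2.21) and Cdkn1a (-2.13). In EN they were Atp1b1 (2.70), Cdkn1a (-1.47) and Cyr61 (-8.41), the last a fitted value against libraries at 0 and no bound.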

How the results depend on the processing

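Of 46 calls of named genes in a class, 19 held without any 1 library and 19 with only the 8-week odor libraries. Leaving out each library in turn gave 23 to 88 calls in AS, 0 to 5 in EN, 4 to 6 in MG, 0 to 1 in MU, 14 to 66 in OL, 0 to 2 in OPC and 1 to 23 in class N. It gave 1 to 6 genes called in 3 or more classes, 4 to 25 in 2 or more and 31 to 103 called in 1 of at least 3 tested. Differences between classes numbered 1 to 6 in EN, 1 to 6 in MG, 0 to 10 in OL, 0 to 1 in OPC and class N and 8 to 24 over all classes, and the mean over classes gave 0 to 6 genes. Without the filter on low counts the calls were 86 in AS, 8 in EN, 16 in MG, 68 in OL, 2 in OPC and 45 in class N, with 9 genes in 3 or more classes, 25 in 2 or more and 162 in 1. DESeq2 called 3 genes in EN, 1 in MU, 0 in OPC and 0 in class N, with 1 gene in 3 or more classes and 8 in 2 or more, and 28 class-gene pairs against immobilization where edgeR had 44. Age as a covariate gave 35 in AS, 2 in OPC and 8 genes in 2 or more classes. The 8-week odor libraries alone gave 13 in AS, 13 in OL, 2 in class N, 4 genes in 2 or more classes, 20 in 1, differences of 0 in EN, 1 in MG, 4 in OL and 3 over all, and 0 in the mean over classes. With at least 20 cells EN had 2 calls and OPC 0. Without libraries under 300 cells OPC had 0, 8 genes were called in 2 or more classes, and the differences in class share changed sign to 0.263 percentage points in MG, 1.35 in OPC and -5.27 in class N. Naive and odor libraries alone gave 0 in OPC. Without cells of mixed markers OPC and class N had 0, EN differences 0, and 1 gene was called in 3 or more classes. A filter in all 6 classes gave 0 differences in EN, 1 in MG and 6 over all, and a prior count of 0.5 gave 0 genes in the mean over classes. The cause was not tested.

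Replicate numbers of naive and odor libraries did not pair them: the correlations of same-numbered deviations ran from -0.36 to 0.0998. With the replicate block OPC had 0 calls, class N 3, AS 54 and OL 29, 1 gene was called in 3 or more classes, and the mean over classes gave 8 genes.

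Depth limits the precision: the smallest odor library held 14730 UMIs in EN, 25480 in MU, 35643 in MG and 64067 in OPC.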
